A study of Drosophila melanogaster with 9 samples.

Results

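The genes described here are enzymes of glycolysis in the testis of Drosophila melanogaster, together with the paralogs of these enzymes that are known for testis expression. They were chosen by name, as the probe sets of an Affymetrix array whose single gene symbol was one of 10: Hex-A, Hex-t1, Hex-t2, Pfk, Gapdh1, Pgk, Pglym78, Pglym87, Eno and PyK. Of these 10, 8 had a probe set, 1 each, among 10845 genes named by a single symbol on the array. Hex-t1 and PyK had none under a single symbol. The study compared testes that make sperm with testes of meiotic arrest mutants on 9 arrays, 3 per genotype. Control flies, with normal testes, were red[1] e[1], the chromosome that the can allele was made on. Flies of one mutant genotype carried can[3] with red[1] e[1] in a w background. The other mutants were titled comr, with the genotype comr[z1340] cn[1] bw[1], but aly and the allele aly[5] stand in their description and source name; the labels do not settle which of these genes was mutated, so these arrays are called labelled comr throughout. Males came from 25 °C cultures and were 0 to 1 day old, and their hand-dissected testes were pooled until there was enough RNA. The red e markers were shared by control and can flies, whereas the labelled comr flies carried cn bw, and the can flies also w, so strain background and mutation cannot be told apart in the first group and not fully in the second.

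Glycolysis breaks glucose down to pyruvate in the cytoplasm. Hexokinase traps glucose as its phosphate, phosphofructokinase commits the sugar to breakdown, and aldolase splits it. Glyceraldehyde phosphate dehydrogenase, phosphoglycerate kinase, phosphoglycerate mutase, enolase and pyruvate kinase then carry the products to pyruvate, with ATP made by both kinases of this lower stretch. Many enzymes of energy metabolism have a second gene copy in Drosophila that is transcribed mainly in the male germline, and Hex-t1, Hex-t2 and Pglym87 are such copies. In primary spermatocytes aly and comr act in a testis-specific form of a chromatin complex, and can encodes a testis-specific TAF, a relative of the subunits of the general transcription factor TFIID. Loss of any of these genes stops germ cells as mature spermatocytes, before the meiotic divisions, so arrested testes lack spermatids and sperm.

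Probe set signals are on the authors' linear scale, on which the mean of each array without its lowest and highest 2% was 100.01. A floor of 20.3 was set at the brightest of 23 control probe sets whose target was not spiked in, and a signal at or below it is not a measured level. Between 56.9% and 63.3% of probe sets lay above it on each array. Tests used limma on log2(signal + 16) over 9777 probe sets, and a gene is said to have risen or fallen where the Benjamini-Hochberg adjusted p was under 0.05 and the change at least 2-fold on that scale. Whether the 3 arrays of a group hold independently dissected testes is not stated in the labels, and the p-values describe the array-to-array spread alone, which may be technical. Their small number limits the precision. The 9 testis germline markers summed to 7687.1 to 8055.0 on control arrays, 2917.9 to 3024.7 on labelled comr arrays and 2576.1 to 2732.2 on can arrays. The sum hides opposite directions, since in labelled comr testes betaTub85D, Mst77F, dj, bol and twe fell while can, aly, topi and Rbp4 rose, aly from a mean of 86.3 to 545.6. In can testes 4 of the 9 fell and 1, Rbp4, rose. Of 9 muscle sheath markers 6 were measured, at summed signals of 1570.6 to 1737.0, 1362.1 to 1619.4 and 1235.7 to 1471.9 in the same order. In control testes that sum is mostly Act87E, whose mean was 1104.4 in control, 616.1 in labelled comr and 632.0 in can testes. Mlc2 had means of 403.9, 658.1 and 550.3 in the same order. Mlc2, up, Tm2 and bt had log2 changes of 0.44 to 0.78 in labelled comr and 0.12 to 0.43 in can testes. Of the 6, only sls passed the test, lower in labelled comr. Of 9 somatic cyst and hub markers 8 were measured, at 222.8 to 229.7, 218.0 to 231.3 and 260.3 to 268.9, with ptc, tj and upd1 never above the floor. Accessory gland transcripts ranged from 608.4 to 4111.7 among control arrays, 47.3 to 1729.4 among labelled comr arrays and 111.2 to 3589.2 among can arrays, over 11 of 13 genes, with Acp29AB never above the floor. Fat body markers, 6 of 9 measured, ranged over 127.8 to 275.5, 111.5 to 150.2 and 193.5 to 251.9, with Yp1 never above the floor. The 3 measured of 5 ejaculatory duct and bulb markers summed to 10.9 to 27.1, 13.8 to 41.0 and 18.2 to 28.4, with Ebp and EbpII never above it. Haemocyte markers, 5 of 6 measured, summed to 158.6 to 261.8, 533.5 to 600.9 and 323.6 to 393.4, with NimC1 never above the floor. Hml, Col4a1 and vkg were tested, and all 3 rose in labelled comr and 1 in can testes, against 28.9% and 20.7% of all tested probe sets. Means in control, labelled comr and can were 12.1, 96.1 and 18.1 for Hml, 110.6, 286.4 and 215.0 for Col4a1 and 51.5, 162.2 and 118.2 for vkg. The means of srp and NimC1, too dim to test, were lower in both mutants. The part of other tissues in the changes below was not tested. In RNA from whole testes, fewer cells of a type and less RNA per cell cannot be told apart.

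Both testis paralogs with a probe set, Hex-t2 and Pglym87, fell in both mutants. They were below the floor on all 3 labelled comr arrays and at 11.8% and 8.22% of the control mean in can testes. Pfk fell in both mutants, and Eno fell in labelled comr testes. Gapdh1 and Pglym78 rose in both mutants, and so did Pgk, although with arrays centred on ribosomal protein genes only Pglym78 still passed the test and Pgk in can testes stood at -0.02 on the log2 scale. Hex-A had higher signals in both mutants without reaching the 2-fold minimum.

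The first step of the pathway is run by hexokinase. Hex-A (CG3001, on the X chromosome) encodes the general enzyme, and its signals were 31.2, 31.8 and 45.9 on the control arrays, 77.4, 69.8 and 71.8 on the labelled comr arrays and 66.7, 53.6 and 64 on the can arrays. Both mutant groups lay above all control arrays, with means of 73.0 ± 3.94 and 61.4 ± 6.92 against 36.3 ± 8.32 (SD, n = 3 here and below). On the linear scale these means were 2.01-fold and 1.69-fold higher than in control. The log2 change was 0.78 (SE 0.13, limma adjusted p 1.59e-04) in labelled comr and 0.57 (SE 0.13, adjusted p 0.00196) in can testes, under the 2-fold minimum in both. It turned to -0.01 and -0.37 with ribosomal protein centring, while in labelled comr testes it passed the minimum with the spiked controls (1.10) and with an offset of 1 (1.01).

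Hex-t2 (CG32849, chromosome arm 3R) is the testis hexokinase on the array. Its signals were 1936.3, 1762.6 and 1931.8 on the control arrays, 2.1, 8.8 and 10.3 on the labelled comr arrays and 225.3, 205.1 and 232.4 on the can arrays. The 3 groups were far apart, with every labelled comr array below the floor and every can array above it. Against the floor, the control mean of 1876.9 ± 99.0 was at least 92.4-fold higher than in labelled comr testes (limma adjusted p 4.44e-13), and this bound lay between 79.7 and 93.2 over 5 scalings of the arrays. In can testes the mean was 220.9 ± 14.2, which is 8.50-fold lower than in control and a log2 change of -3.0 (SE 0.13, adjusted p 9.50e-10). Hex-t1 and Hex-t2 are direct neighbours on 3R in the current gene table (assembly Release 6 plus ISO1 MT), with 0 genes starting between them, and share the older name CG5443. Probe sequences were not used here, so the signal under the name Hex-t2 may include Hex-t1 transcripts.

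Phosphofructokinase, the main control point of glycolysis, is encoded by Pfk (CG4001, arm 2R). The Pfk signals were 1138.6, 1206.1 and 1123.2 in control, 303.1, 293.5 and 320.5 in labelled comr and 247.1, 243.3 and 246.9 in can testes. Control arrays were the highest and can arrays the lowest, with no overlap between any of the groups. The mean fell from 1156.0 ± 44.1 to 305.7 ± 13.7 in labelled comr, 3.78-fold lower (log2 change -1.87, SE 0.067, adjusted p 7.46e-11), and to 245.8 ± 2.14 in can, 4.70-fold lower (log2 change -2.16, SE 0.067, adjusted p 1.11e-10). It was the one measured gene of the set whose signals were lower in can than in labelled comr testes without overlap and with an adjusted p under the threshold, by 0.30 on the log2 scale (SE 0.067, 95% interval 0.15 to 0.44, adjusted p 0.00292), a difference under the 2-fold minimum.

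Gapdh1 (CG12055, arm 2R) encodes a glyceraldehyde phosphate dehydrogenase. Its signals were 170.7, 187.6 and 188.6 in control, 620.9, 555.7 and 653.4 in labelled comr and 576.9, 579.5 and 568.0 in can testes. All 6 mutant arrays lay above the control arrays, and the mutant groups overlapped each other. The mean rose from 182.3 ± 10.1 to 610.0 ± 49.8 in labelled comr, 3.35-fold (log2 change 1.66, SE 0.078, adjusted p 9.15e-10), and to 574.8 ± 6.03 in can, 3.15-fold (log2 change 1.58, SE 0.078, adjusted p 3.12e-09). The array also carries 3 GAPDH control probe sets, for the 3', middle and 5' parts of a transcript, and the files do not state which Gapdh gene they read. The 3' probe set gave 241.8, 215.2 and 274.9 in control, 786.4, 669.5 and 600.4 in labelled comr and 830.9, 827.9 and 728.5 in can testes. It was higher in both mutants by 2.81-fold and 3.26-fold, close to Gapdh1 itself, and the middle probe set by 2.44-fold and 2.71-fold. The 5' probe set was higher by only 1.21-fold and 1.58-fold. The ratio of 3' to 5' signal was 2.59 ± 0.294 in control, 5.99 ± 0.635 in labelled comr and 5.52 ± 1.33 in can testes, so this measure of RNA or cDNA length moved with the groups, and its part in the results was not tested.

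**Figure D1:**
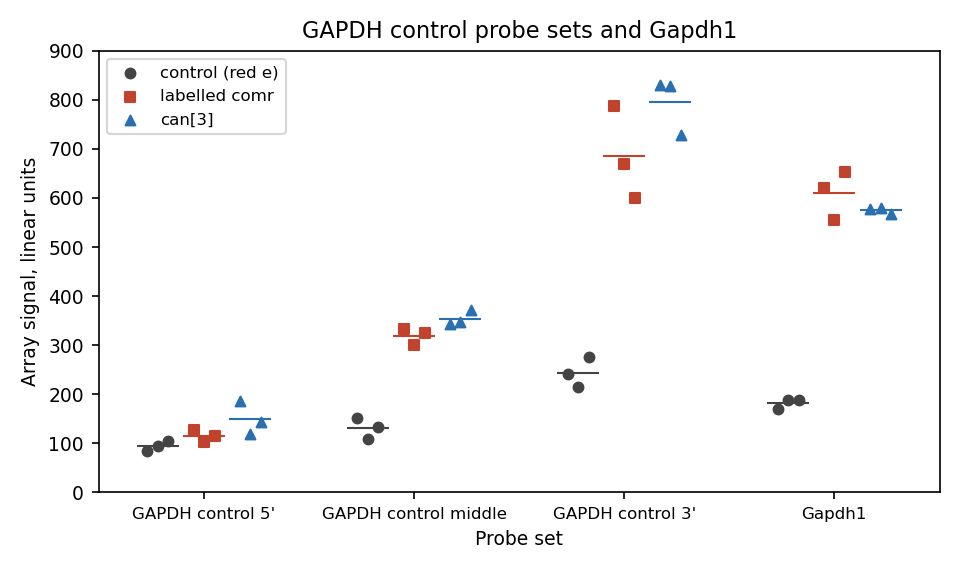
Signal in linear array units of the 3', middle and 5' GAPDH control probe sets and of Gapdh1 on each of 9 arrays, with points for arrays and lines for group means. The 3' probe set and Gapdh1 were higher on all mutant arrays than on all control arrays, while the 5' probe set differed by 1.21-fold and 1.58-fold between means.

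Phosphoglycerate kinase, which makes the first ATP of the pathway, is encoded by Pgk (CG3127, arm 2L). Pgk signals were 50.6, 54.1 and 55.5 in control, 155.7, 126.1 and 124.7 in labelled comr and 147.8, 110.8 and 120.5 in can testes. Both mutant groups lay above control and overlapped each other. The mean of 53.4 ± 2.52 in control stood against 135.5 ± 17.5 in labelled comr, 2.54-fold higher (log2 change 1.12, SE 0.12, adjusted p 2.57e-06), and 126.4 ± 19.2 in can, 2.37-fold higher (log2 change 1.03, SE 0.12, adjusted p 7.60e-06). These changes lie near the 2-fold minimum, and the call in can testes was lost when can replicate 1 or control replicate 1 was left out (log2 changes of 0.92 and 1.00).

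The mutase step has a general and a testis gene on the array. Pglym78 (CG1721, arm 3R), the general phosphoglycerate mutase, gave 14.1, 14.3 and 40.4 in control, 164.7, 153.5 and 210.2 in labelled comr and 96.9, 172.5 and 142.8 in can testes. Only 1 of the 3 control arrays was above the floor, whereas all 6 mutant arrays were well above it. The means were 22.9 ± 15.1, 176.1 ± 30 and 137.4 ± 38.1, and the log2 changes were 2.36 (SE 0.25, adjusted p 1.84e-06) in labelled comr and 2.01 (SE 0.25, adjusted p 1.07e-05) in can testes. With the control signals below the floor set to it, the rise was at least 6.52-fold and at least 5.09-fold. Pglym78 rose in all 5 scalings, by 1.64 to 2.67 and by 1.12 to 2.06 on the log2 scale. Over all alternatives tried the changes lay between 1.47 and 3.05 and between 1.12 and 2.67.

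Pglym87 (CG17645, arm 3R), the testis paralog of Pglym78, gave 2464.5, 2349.7 and 2607.9 in control, 1.0, 0.8 and 1.7 in labelled comr and 185.7, 193.3 and 231.1 in can testes. No group overlapped another, and all 3 labelled comr arrays were below the floor. The control mean of 2474.0 ± 129.4 was at least 122-fold higher than the floor that bounds the labelled comr arrays (adjusted p 3.77e-14), with bounds of 104 to 123 over the 5 scalings. In can testes the mean was 203.4 ± 24.3, 12.2-fold lower than in control (log2 change -3.51, SE 0.093, adjusted p 5.69e-11).

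Enolase, the step before pyruvate kinase, is encoded by Eno (CG17654, arm 2L). Eno signals were 747.9, 713.5 and 757.8 in control, 253.6, 237.9 and 273.2 in labelled comr and 412.3, 456.2 and 562.3 in can testes. The groups were ordered control, can and labelled comr without overlap. The mean fell from 739.7 ± 23.3 to 254.9 ± 17.7 in labelled comr, 2.90-fold lower (log2 change -1.48, SE 0.10, adjusted p 3.75e-08). In can testes the mean was 476.9 ± 77.1, 64.5% of control, a log2 change of -0.63 (SE 0.10, 95% interval -0.85 to -0.40, adjusted p 1.37e-04) that missed the 2-fold minimum.

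**Figure D2:**
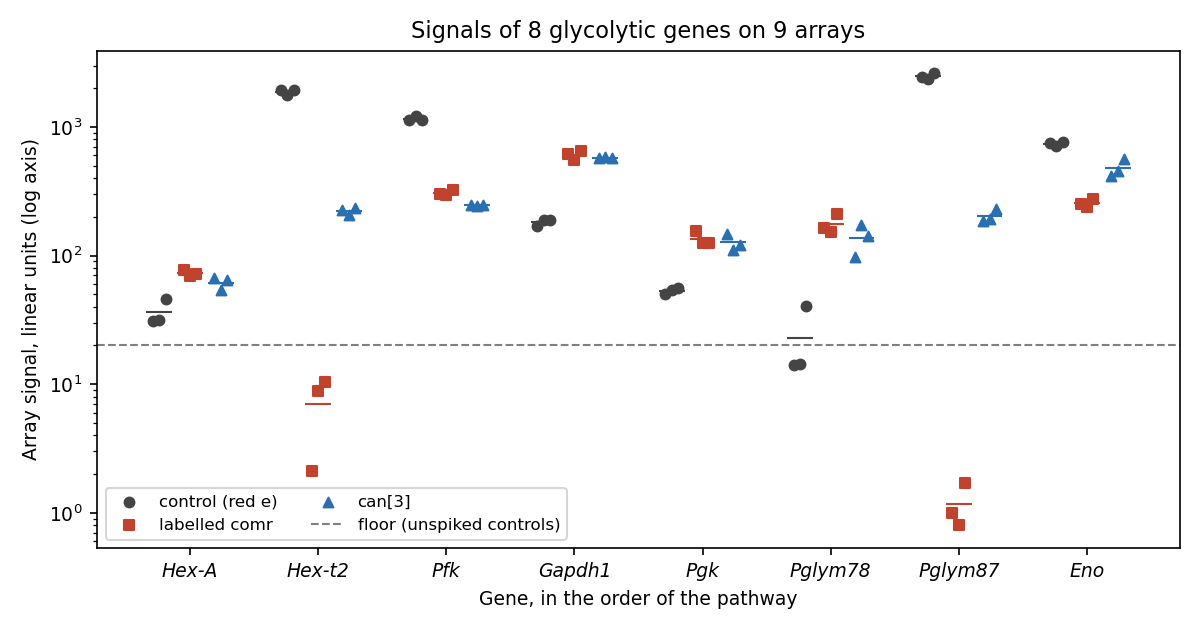
Signal of each of the 8 measured genes on every array, in linear array units on a log axis, with points for arrays and the floor of 20.3 as a line. Hex-t2 and Pglym87 lie below the floor on all 3 labelled comr arrays and between the other groups in can testes.

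Of the 8 measured genes, all 8 passed the filter on low signals. In labelled comr testes 4 fell, against 16.7% of all tested probe sets, and 3 rose, against 28.9%. In can testes 3 fell, against 13.1% of all tested probe sets, and 3 rose, against 20.7%. The median log2 change of the 8 was -0.35 in labelled comr and -0.03 in can testes, beside 0.35 and 0.29 for all tested probe sets. The members split into a group that fell and a group that rose, so neither median describes a typical member. Both comparisons use the same 3 control arrays, so they are not independent of each other.

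**Figure D3:**
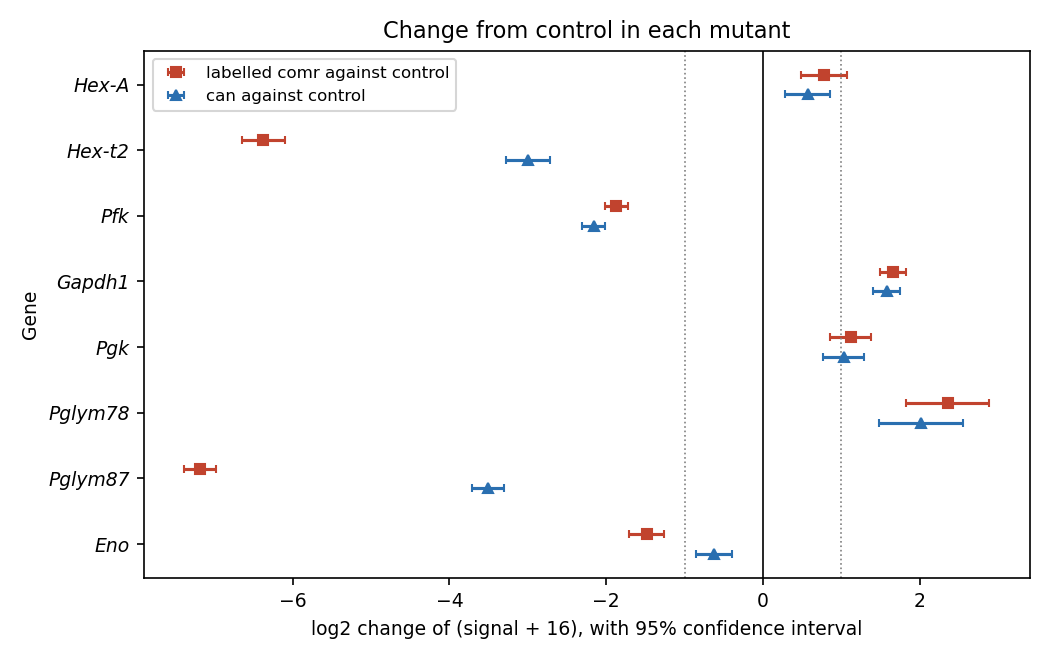
Log2 change of (signal + 16) from control for each gene in labelled comr and can testes, with 95% confidence intervals from limma and dotted lines at the 2-fold minimum. Pglym87 and Hex-t2 lie farthest below 0 and farther in labelled comr than in can testes, while Pglym78, Gapdh1 and Pgk lie above 0 in both.

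Since all members were measured against one scaling of each array, the change of a testis paralog was also compared with that of its general counterpart within each array, which does not depend on that scaling apart from a floor or offset. Such a comparison shows unequal change of the pair, not which of the genes changed. Several of these signals lay at or below the floor, so each was set to the floor where it was lower, with no 16 added, a setting chosen after the values were seen. The log2 change of Pglym87 minus that of Pglym78 was then -9.70 or lower in labelled comr and -6.0 or lower in can testes, both bounds. For Hex-t2 and Hex-A the difference was -7.56 or lower in labelled comr and, with all signals above the floor, -3.86 in can testes. The exact permutation test of 3 arrays against 3, two-sided, gave p = 0.1 for each of these differences, the smallest it can give, and 0.109 after Benjamini-Hochberg adjustment over 12 such tests. With an added offset the size depends on it: in labelled comr testes the difference for the mutase pair was -9.54 with 16, -13.23 with 1 and -6.75 with 64, and for the hexokinase pair -7.15, -9.08 and -5.22. In can testes these values were -5.52, -6.27 and -4.46 for the mutase pair and -3.57, -3.84 and -3.09 for the hexokinase pair.

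**Figure D4:**
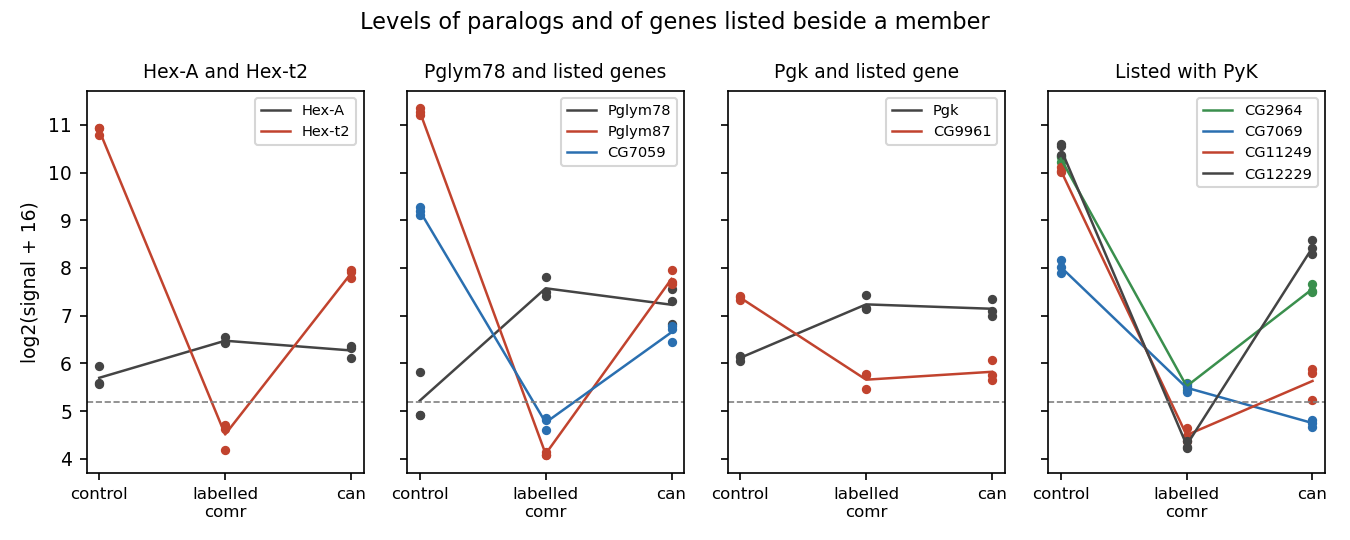
Level as log2(signal + 16) on each array, with points for arrays, lines through group means and a dashed line at the floor, for the hexokinase pair, for Pglym78 and Pgk with the genes listed beside them, and for 4 genes listed with PyK. Hex-t2, Pglym87, CG7059 and CG9961 were lower in both mutants than in control while Hex-A, Pglym78 and Pgk were higher as scaled by the authors, a direction that turned for Hex-A and for Pgk in can with ribosomal protein centring; levels of different probe sets are not comparable.

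The mutants were then compared with each other, without the control arrays except for the shared estimate of spread. Of the 8 genes, 2 were lower in labelled comr than in can testes, against 10.3% of all tested probe sets, and 0 were higher by the limma test, against 4.54%. At an unadjusted p under 0.05 there were 3 lower and 1 higher. Of all 9777 tested probe sets, 5368 had an unadjusted p under 0.05 in this comparison, in either direction. Hex-t2 was at least 10.9-fold lower in labelled comr than in can testes (log2 difference -3.38, SE 0.13, adjusted p 4.79e-10), with bounds of 4.41 to 10.9 over the scalings. Pglym87 was at least 9.97-fold lower (log2 difference -3.67, SE 0.093, adjusted p 2.16e-11), with bounds of 4.05 to 9.97. Each bound gives a minimum size only, since can testes held a measurable signal of both paralogs where labelled comr testes did not.

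Eno was also lower in labelled comr than in can testes, by a log2 difference of -0.85 (SE 0.10, adjusted p 2.21e-05) that missed the 2-fold minimum and passed it after quantile normalisation (-1.01), which makes 3 members lower. For the general enzymes that rose, the mutants overlapped. The log2 difference between labelled comr and can was 0.08 for Gapdh1 (95% interval -0.09 to 0.25, adjusted p 0.422), 0.09 for Pgk (95% interval -0.17 to 0.36, adjusted p 0.558) and 0.35 for Pglym78 (95% interval -0.19 to 0.88, adjusted p 0.269). For Hex-A it was 0.20 (95% interval -0.09 to 0.49, adjusted p 0.229), although the 3 labelled comr arrays were all above the 3 can arrays. The median over the 8 genes was 0.08, beside -0.01 for all tested probe sets.

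The authors' scaling decides how far the smaller changes can be read. The median log2 change of all tested probe sets in labelled comr testes was 0.35 as deposited, 0.30 after quantile normalisation, 0.38 with arrays centred on their medians, 0.68 with arrays centred on 9 spiked control probe sets and -0.50 with arrays centred on 25 ribosomal protein genes. In can testes these medians were 0.29, 0.13, 0.09, 0.37 and -0.67. The counts of all probe sets moved with them, from 1634 lower and 2826 higher in labelled comr testes as deposited to 3331 and 877 with ribosomal protein centring and 1396 and 3885 with the spiked controls. In can testes they moved from 1276 lower and 2028 higher to 3466 and 247 with ribosomal protein centring and 1514 and 1362 with median centring. Between the mutants they moved from 1003 lower and 444 higher to 812 and 624 with ribosomal protein centring, 840 and 842 with median centring and 870 and 867 with the spiked controls. Pglym87, Hex-t2 and Pfk fell, and Pglym78 rose, against control in both mutants under all 5 scalings. Eno fell in labelled comr under all 5, by 1.08 to 2.50 on the log2 scale, and in can testes it passed only with ribosomal protein centring, at -1.86. Gapdh1 rose in 4 of the 5, and with ribosomal protein centring its log2 change was 0.67 and 0.38. Pgk passed in 3 of the 5 in labelled comr and 2 of the 5 in can testes.

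**Figure D5:**
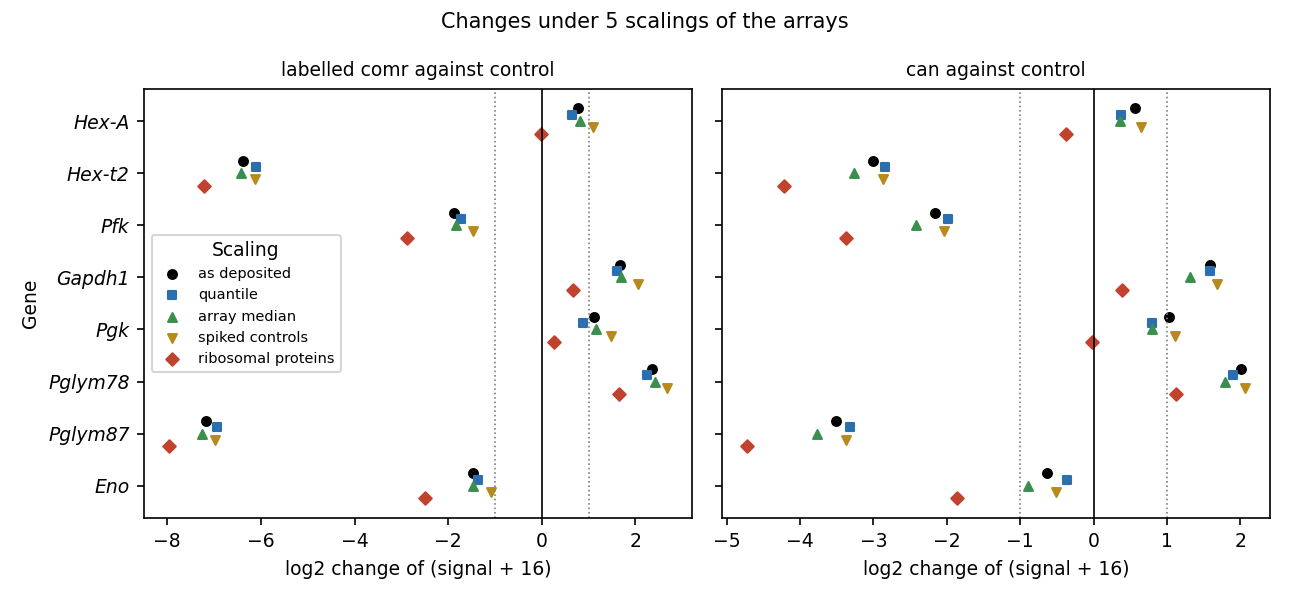
Log2 change of (signal + 16) from control of each gene in labelled comr and can testes under 5 scalings of the arrays, with dotted lines at the 2-fold minimum. Pglym87, Hex-t2, Pfk and Pglym78 stay past the 2-fold lines on their side of 0 in every scaling, while Hex-A in both mutants and Pgk in can testes lie at or below 0 with ribosomal protein centring.

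Other genes of glycolysis, and genes listed as possible paralogs, were read from a list of 14 genes. The list was chosen with earlier results of these data known. Of the 14, 11 had a probe set under a single symbol and 9 passed the filter. At an unadjusted p under 0.05, 1 of the 9 was higher in each mutant. Of all 9777 tested probe sets, 7860 in labelled comr and 7141 in can testes had such a p, in either direction. By the full test, 7 of the 9 fell and 0 rose in labelled comr testes (median log2 change -2.53). In can testes 7 fell and 0 rose (median -2.08). Beside these stand the 16.7% lower and 28.9% higher of all tested probe sets in labelled comr and the 13.1% and 20.7% in can testes. These shares hold for the lists below too, but only for counts on the authors' scaling. Among the genes that fell, only Ald1, the aldolase gene, has a named role, so the counts and medians mostly describe possible paralogs. Ald1 had a mean signal of 1196.1 in control, 259.7 in labelled comr and 452.6 in can testes, with log2 changes of -2.14 and -1.38. Pgi, the glucose phosphate isomerase gene, did not pass the test in either mutant, with log2 changes of 0.15 and -0.26, or -0.87 and, past the threshold, -1.48 with ribosomal protein centring. Neither did Pfrx, the bifunctional enzyme that makes and removes a regulator of phosphofructokinase, with 0.67 and 0.53, values that turned below 0 with ribosomal protein centring. Hex-C and CG7362 were too dim to test, and Tpi, Gapdh2 and Ald2 had no probe set under a single symbol.

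The remaining genes that fell are known here only by their CG numbers, and the files and gene table give them no role. They were listed as possible paralogs beside PyK, Pglym78 or Pgk. Among the 4 listed with PyK that could be tested, CG12229 went from a mean of 1439.5 in control to 3.53 in labelled comr and 329.8 in can testes, at least 70.8-fold lower and a log2 change of -2.08. CG11249 went from 1045.1 to 6.63 and 34.5, at least 51.5-fold lower and a log2 change of -4.42. CG2964 went from 1240.8 to 30 and 173.1, with log2 changes of -4.77 and -2.73. Each of these 3 was lower in labelled comr than in can testes, although the call for CG11249, a log2 difference of -1.14, was lost in 3 of the 5 scalings.

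CG7069, a direct neighbour of PyK on 3R with 0 genes starting between them, had a lower mean in can than in labelled comr testes. It went from 244.6 in control to 29.0 in labelled comr, a log2 change of -2.53, and to 10.9 in can testes, at least 12-fold lower than in control. The difference between the mutants, 0.74 on the log2 scale, did not pass the 2-fold minimum. CG7059, listed beside Pglym78, went from 571.9 to 11.2 and 85.1, at least 28.1-fold lower in labelled comr and a log2 change of -2.54 in can testes. CG9961, listed beside Pgk, went from 150.3 to 34.7 and 41.1, with log2 changes of -1.72 and -1.55. Set against the general enzyme within each array, with low signals at the floor, the change of CG7059 differed from that of Pglym78 by -7.59 or lower in labelled comr and -5.14 or lower in can testes. The change of CG9961 differed from that of Pgk by -3.47 and -3.13, with all signals of both above the floor. These 4 differences also reached only p = 0.1 in the exact permutation test. CG9961 and Pgk differed by -0.34 between the mutants, where the exact p was 0.4 and their ratios overlapped.

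Beyond pyruvate kinase, 15 of 21 listed genes of pyruvate, lactate and glycerol phosphate metabolism were tested. In labelled comr testes 9 fell and 2 rose (median log2 change -1.33), and in can testes 8 fell and 2 rose (median -1.08). With ribosomal protein centring 11 fell and 0 rose in labelled comr, and 12 fell and 0 rose in can testes. Of all 9777 tested probe sets, 3331 fell and 877 rose in labelled comr with that centring, and 3466 and 247 in can testes. The glycerol phosphate shuttle, which passes electrons from cytoplasmic NADH to mitochondria, uses a dehydrogenase and an oxidase, and each has several genes in flies. The dehydrogenase genes Gpdh2 and Gpdh3 went from means of 260.1 and 423.3 in control to 2.60 and 5.50 in labelled comr and 40.2 and 34.5 in can testes. They were below the floor in labelled comr, at least 12.8-fold and 20.8-fold lower, with log2 changes of -2.30 and -3.14 in can testes. Gpdh1, another dehydrogenase gene, rose from 42.0 to 130.7 and 114.0, with log2 changes of 1.35 and 1.16 that fell to 0.52 and 0.16 with ribosomal protein centring.

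Both oxidase genes with a probe set fell. Gpo2 went from 382.6 in control to 2.27 in labelled comr, at least 18.8-fold lower, and to 23.9 in can testes (log2 change -3.33). Only 2 of the 3 can arrays were above the floor for Gpo2, so the size of its fall there is uncertain. Gpo3 went from 1396.6 to 160.2 and 415.3, with log2 changes of -3.01 and -1.71. Malic enzyme, which turns malate into pyruvate, showed a similar division, with Men at 472.8, 78.5 and 157.3 (log2 changes -2.37 and -1.49) and Men-b at 238.3, 754.6 and 503.4 (log2 changes 1.60 and 1.03). A second probe set of Men-b gave 0.70 and 0.67, under the 2-fold minimum, and with ribosomal protein centring the change of the brighter one was 0.60 and -0.18. Pepck1, a phosphoenolpyruvate carboxykinase of gluconeogenesis, fell by 1.75 and 1.92 on the log2 scale, from a control mean of 251.9 ± 120.5 that varied widely between arrays. CG7024, known here only by number, fell by 1.56 and 1.68.

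Upstream of hexokinase, 15 of 17 listed genes of sugar entry and storage were tested. The filter on mean signal left out sut1, which was never above the floor, and Tret1-2. Signals of Tret1-2 lay above the floor on all 3 control arrays (mean 33.9) and below it on every mutant array. Its means there were 4.67 in labelled comr and 4.13 in can testes. Of the 15 tested genes, 5 fell and 4 rose in labelled comr testes (median log2 change 0.37), and 4 fell and 2 rose in can testes (median 0.38). The medians are close to the 0.35 and 0.29 of all tested probe sets, and the count that rose in labelled comr is near the share of 28.9% over all of them. sut4, a named sugar transporter, had means of 1583.4 in control, 6.33 in labelled comr and 580.2 in can testes, at least 78.0-fold lower in labelled comr and a log2 change of -1.42 in can testes. It was at least 28.6-fold lower in labelled comr than in can testes. sut3, also named as a sugar transporter, had means of 547.0, 180.6 and 92.1 and log2 changes of -1.52 and -2.38. Treh, the trehalase gene, fell by 1.7 and 1.2 on the log2 scale. Pgm2b, named for phosphoglucomutase, was at least 12.3-fold lower in labelled comr, with a log2 change of -2.46 in can testes. Glyp, the glycogen phosphorylase gene, rose by 1.98 and 1.52, and UGP, which makes UDP-glucose, by 1.51 and 1.16, on the authors' scaling. Pgm1, a phosphoglucomutase gene, and Glys, the glycogen synthase gene, rose in labelled comr testes (log2 changes 1.31 and 1.07) from control signals mostly below the floor, by at least 2.24-fold and at least 2.03-fold, and did not pass in can testes (0.88 and 0.84). With ribosomal protein centring 1 gene of this list, Glyp, rose in labelled comr and 0 in can testes, where UGP stood at 0.13. Of all 9777 tested probe sets, 877 rose in labelled comr and 247 in can testes with that centring. In the pentose phosphate pathway, a side branch of glycolysis, 5 of 7 listed genes were tested. Taldo, transaldolase, rose by 1.53 and 1.51 on the log2 scale, or 0.61 and 0.39 with ribosomal protein centring, and Rpe, an epimerase of the pathway, fell by 1.60 and 1.41.

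The genes most like Pglym87 and Pglym78 were sought by the root mean square difference of log2(signal + 16) over the 9 arrays, each gene centred on its own mean, among 8793 probe sets. Nearest to Pglym87 were CG4691 at 0.262, CG2127 at 0.332, CG42855 at 0.337, CG3517 at 0.358 and, in the fifth place, its fellow member Hex-t2 at 0.362. Pglym78 itself stood at 3.92 from Pglym87. Nearest to Pglym78 were CG9951 at 0.216, PrBP at 0.230, CG9330 at 0.249, Argk1 at 0.254 and mRpL20 at 0.258. Argk1, an arginine kinase that buffers ATP in insects, had means of 30.3 in control, 161.2 in labelled comr and 150.6 in can testes. Gapdh1, Pgk and Hex-A stood at 0.413, 0.656 and 0.772 from Pglym78. The general enzyme genes Eno and Pfk were farther from it, at 1.63 and 2.01, and Hex-t2 stood at 3.59. These distances describe 9 arrays of 3 genotypes and carry no test.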

How the data were processed

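The authors deposited a linear signal intensity per probe set for each of 9 arrays, which GCOS 1.4 produced, as the submitters' processing notes state. Not given in the sources used here are the algorithm of the signal, its background correction and filtering. There were 14010 probe sets: 44 controls, 12443 with 1 gene symbol, 327 with several and 1196 with none. Probe sets were named through the platform annotation and the current gene table.

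No further normalisation was applied. Probe sets in the lowest 30% by mean signal (under 15.1) were left out, and limma 3.58.1 in R 4.3.3 (lmFit and eBayes with an intensity trend) was fitted to log2(signal + 16) of 9777 probe sets on all 9 arrays, with 1 coefficient per genotype. Adjusted p-values were taken over all 9777. A fold change on this scale understates the change of low signals, and folds of means are given on the linear scale. Where a group lay at or below the floor, a fold is a bound against 20.3. Paralog pairs were compared with exact permutation tests. The fit was also run on simulated arrays with independent noise, which cannot test the floor or the scaling. Replicates of a group correlated at 0.972 to 0.987, and no 2 arrays held the same values throughout.

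The members and the gene lists were chosen with earlier results of these data known. All members with a probe set are named with every array. Of each other list, up to 8 genes per comparison that passed the test are named in order of change; Pgi and Pfrx, which did not pass, were named after their values were seen. In lists, a gene with several probe sets is represented by its brightest. Alternatives were other offsets, filters, scalings, fold minimums, array weights, a fit without trend, fits of the compared groups alone, a replicate block and each array left out. Sequences were not used here, and gene coordinates served only to see which genes neighbour each other.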

Additional observations from a re-analysis of the deposited data

Results flagged for a closer look

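Both testis paralogs with a probe set differed between the mutants in the size of their fall from control. The log2 difference, labelled comr minus can, was -3.38 for Hex-t2 (SE 0.13, limma adjusted p 4.79e-10) and -3.67 for Pglym87 (SE 0.093, adjusted p 2.16e-11), with all 3 labelled comr arrays below all 3 can arrays in each case. Since the labelled comr signals were below the floor, the size of either difference depends on the added 16.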

How the results depend on the processing

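Of 552 values of single members under an alternative, 522 kept their direction and their side of the threshold, 17 lost the call, 9 gained one and 4 changed sign. The sign changes were those of Hex-A with ribosomal protein centring (-0.01 in labelled comr and -0.37 in can testes against control), of Pgk in can testes with the same centring (-0.02), and of Pgk between the mutants without labelled comr replicate 1 (0.00). Leaving out each array in turn gave 0.00 to 0.20 for that last value.

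The 4 members called lower in labelled comr testes became 2 with a 4-fold minimum. The 3 called higher became 1 with ribosomal protein centring and 1 with a 4-fold minimum, in labelled comr and likewise in can testes. Of all 9777 tested probe sets, 877 in labelled comr and 247 in can testes were called higher with that centring, and 588 and 225 with that minimum. With no minimum fold, 1 member (Pfk) in place of 0 was called higher in labelled comr than in can testes. Without single arrays, the count of members called higher in can testes was 2 to 3, and the other counts did not move. Pgk in can testes also lost its call with an offset of 64 (0.69), quantile normalisation (0.80), median centring (0.79) and array weights (1.00), and in labelled comr testes with an offset of 64 (0.76) and quantile normalisation (0.89). Hex-A in labelled comr testes gained the call with an offset of 1 and the spiked controls, and Eno between the mutants with quantile normalisation. The causes of these shifts were not tested, apart from the fold minimums, which remove calls by construction.

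Over all alternatives the log2 change of Pglym87 ranged from -10.18 to -5.28 in labelled comr and from -4.72 to -3.25 in can testes, that of Hex-t2 from -8.07 to -4.77 and from -4.22 to -2.77, that of Pfk from -2.89 to -1.46 and from -3.38 to -1.98, and that of Pglym78 from 1.47 to 3.05 and from 1.12 to 2.67. The width for Hex-t2 and Pglym87 in labelled comr testes comes with the offset, since their signals there are under the floor.

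The replicate numbers are shared by the groups in the labels. Deviations of same-numbered arrays correlated at -0.137 to 0.193, so the numbers were not taken to pair the arrays. With the replicate number as a replicate block, the counts of members were 4 lower and 3 higher in labelled comr testes, 3 and 3 in can testes, and 2 and 0 between the mutants.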
